A study of Mus musculus with 22 samples.

Results

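Annexins are calcium-dependent proteins that bind acidic phospholipids on the inner face of membranes, where they take part in vesicle traffic, membrane repair and the anchoring of the actin cytoskeleton. The 7 genes described here (Anxa2, Anxa3, Anxa4, Anxa5, Anxa6, Anxa7 and Anxa11) were chosen by symbol, with earlier results of these data known. All 7 were present among the 20668 genes counted in hypothalamic nuclei and the 16304 genes counted in whole hypothalamic cells. Ependymal cells and tanycytes form the wall of the ventricle and touch the cerebrospinal fluid, into which the injections of this study were made, and astrocytes lie in the tissue behind them. Some annexins act through small S100 proteins: Anxa2 with S100a10, and Anxa11 with S100a6.

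The tissue came from 22 male leptin-deficient obese (ob/ob) mice, 11 weeks old, each of which received a single intracerebroventricular (icv) injection of 3 µg of FGF1, a fibroblast growth factor, or of PBS vehicle. Food of the vehicle mice was limited to what FGF1 mice ate (pair-feeding), and each sample was 1 mouse. No lean mice are compared here. Single-nucleus RNA-seq (snRNA-seq) covered 3 FGF1 mice (8620 nuclei) and 3 vehicle mice (4586) on Day 1 and 2 FGF1 mice (7986) and 2 vehicle mice (3773) on Day 5. Whole cells (scRNA-seq) came from a separate 6 FGF1 mice (25767 cells) and 6 vehicle mice (29123) on Day 5, after the study had removed neurons and doublets.

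Between 2721087 and 16345981 unique molecular identifiers (UMIs, counted transcripts) were held per mouse in nuclei, and between 2652897 and 11866269 in whole cells. On Day 1 the FGF1 nuclei were shallower, with medians of 2029 to 2816 UMIs per nucleus over the 3 mice against 3178.5 to 3776 in vehicle mice. FGF1 replicate 1 stood apart, with the lowest of these medians and a median ribosomal share of 1.96%, against 0.763 to 1.14% in the other 5 Day 1 libraries. Each batch of the deposited metadata held 1 FGF1 and 1 vehicle mouse. Of 24645 barcode sequences in nuclei, 318 occurred in more than 1 library, with at most 32 shared by a pair of libraries, and of 53065 in whole cells 1791 did, with at most 81 shared by a pair. Nuclei carried the deposited cell type names, and several glial names went with neuronal RNA. CPM are the UMIs of a gene scaled to a UMI total of the type in a mouse. Unless stated otherwise, that total is normalised and covers only genes that passed a filter on low counts in the type. In Day 1 nuclei the summed level of 4 neuron genes was 12798 to 16589 CPM in oligodendrocytes, 15752 to 19696 in microglia and 12207 to 15695 in nuclei labelled COP. It was 6637 to 9846 in tanycytes, 4165 to 11318 in ependymal cells, 2177 to 6281 in astrocytes and 5563 to 8753 in vascular leptomeningeal cells (VLMC). In neurons that the study could not assign to a type (unmapped neurons) it was 14632 to 18051. Fewer genes passed in the glial types (1061 in VLMC, 1456 in ependymal cells and 3534 in tanycytes, against 13681 in unmapped neurons). This raises the glial sums, so they are not on the same scale as those of neurons. The part of neuronal RNA in the annexin values of the glial names was not tested. Nuclei labelled COP held markers of oligodendrocyte precursors (OPC) at 1344 to 4811 CPM in sum and markers of committed oligodendrocyte precursors (COP) at 69.6 to 276, and are called by their label. Whole-cell clusters, which are numbered in the metadata, were named here from marker genes: clusters 0, 7 and 10 were tanycytes, 1 and 4 astrocytes, 2, 11 and 12 oligodendrocytes, 5 OPC, 6 ependymal cells, 3 endothelial cells, 8 microglia, 9 COP, 13 VLMC, 15 pericytes and 16 macrophages. Cluster 3 met the marker rule for all 5 pericyte markers too, at 2861 to 3915 CPM in sum after FGF1 and 2443 to 3817 in vehicle mice. In cluster 15 these were at 13889 to 25633 and 10673 to 22446. Only 313 genes passed the filter in cluster 15, against 6329 in cluster 3, which raises the sums of cluster 15. The part of pericyte RNA in the annexin values of cluster 3 was not tested.

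In the mouse genome (GRCm38) Anxa2 lies at chr9:69453620-69491795 on the + strand, Anxa3 at chr5:96793339-96845966 (+), Anxa4 at chr6:86736840-86793584 (-), Anxa5 at chr3:36448923-36475894 (-), Anxa6 at chr11:54979108-55033445 (-), Anxa7 at chr14:20455260-20480133 (-) and Anxa11 at chr14:25842156-25886804 (+). Exons of Anxa2, Anxa3, Anxa4 and Anxa11 overlap an annotated transcript of another gene (Gm16144, Gm42603, Gm44036 and Anxa11os, in this order), and of these 4 genes only Gm42603 lies on the strand of its annexin. Reads of Gm42603 could therefore be counted for Anxa3, and those of the others only if the counting did not use strand, which is not given in the sources used here.

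RefSeq promoter windows (GRCm38.p6, 250 bases before to 50 bases after the transcription start) were at hand for 5 members, Anxa2, Anxa4, Anxa5, Anxa7 and Anxa11. The windows of Anxa2, Anxa5 and Anxa7 are shown 5′ to 3′ because these 3 members had at least 1 significant response to FGF1. They are chr9:69453433-69453732 (+), chr3:36475838-36476137 (-) and, for the Anxa7 start that is also the 5′ end of the annotated gene, chr14:20480084-20480383 (-). Capitals mark a match to TGANTCA, the motif of AP-1, the Fos and Jun factor of immediate early responses, searched on both strands.
Anxa2: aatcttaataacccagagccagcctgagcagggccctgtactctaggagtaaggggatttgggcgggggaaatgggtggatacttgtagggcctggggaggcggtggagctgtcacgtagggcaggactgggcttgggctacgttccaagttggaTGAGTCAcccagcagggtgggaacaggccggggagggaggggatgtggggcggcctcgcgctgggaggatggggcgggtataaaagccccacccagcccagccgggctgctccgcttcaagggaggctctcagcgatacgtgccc
Anxa5: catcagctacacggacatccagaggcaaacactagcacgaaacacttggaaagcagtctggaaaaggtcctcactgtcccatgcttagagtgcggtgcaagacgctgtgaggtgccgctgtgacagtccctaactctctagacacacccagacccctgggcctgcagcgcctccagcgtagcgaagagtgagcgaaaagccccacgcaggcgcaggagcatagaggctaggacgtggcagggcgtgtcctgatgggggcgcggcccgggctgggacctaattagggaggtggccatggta
Anxa7: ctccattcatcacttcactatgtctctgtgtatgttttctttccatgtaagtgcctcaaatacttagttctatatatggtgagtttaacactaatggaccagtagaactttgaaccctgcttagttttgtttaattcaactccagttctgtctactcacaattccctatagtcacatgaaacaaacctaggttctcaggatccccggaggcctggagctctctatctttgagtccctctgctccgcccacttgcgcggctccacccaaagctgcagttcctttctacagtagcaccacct
The Anxa2 window held 1 AP-1 match, TGAGTCA, whose first base was 95 bases before the start. No other member window held one, and 7.81% of all 32851 windows did (2565). Neither TGACGTCA, the cAMP response element, present in 1.79% of all windows, nor CCGGAAGT, an ETS motif, present in 3.89%, was found in a member window. CpG dinucleotides numbered 13 in the Anxa2 window (63.7% GC), 16 in that of Anxa5 (60.3%) and 4 in that of Anxa7 (44.7%), and an alternative Anxa7 window held 19 (60.7%), against a median of 7 and 52.7% GC over all windows. These matches describe the letters of the windows only.

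In vehicle mice the members differed in where they were found among whole cells, from which the study had removed neurons. Levels are normalised CPM over the UMIs of genes that passed the filter in a cell type. They are compared between cell types within a gene. Few genes passed in small clusters (313 in pericytes against 9441 in tanycyte cluster 0), which raises their levels, so the orders are approximate. Over all UMIs of 6 vehicle mice, Anxa2 was at 171 CPM in tanycyte cluster 0, 129 in endothelial cells, 76.3 in VLMC and 68.6 in pericytes. VLMC were thus below cluster 0 and endothelial cells on that scale, unlike in the order below. Anxa3 was at 232 in microglia and 235 in endothelial cells. Since clusters were built from the same cells, these levels are a description. Among the 16 whole-cell clusters tested, Anxa2 was highest in ependymal cluster 6 (329 ± 39.8, SD, n = 6 mice) and in tanycyte clusters 7 (258 ± 59.7) and 10 (249 ± 38.8), whose ranges over mice overlapped. It followed in VLMC (176 ± 20.0, n = 4), tanycyte cluster 0 (171 ± 8.42), endothelial cells (137 ± 25.3) and pericytes (130 ± 48.0), each overlapping its neighbour in the order. All astrocyte, oligodendrocyte and OPC clusters lay at 20.1 CPM or below.

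Anxa5, a phosphatidylserine-binding protein that assembles on damaged membranes, had the same leading cluster, with 800 ± 129 CPM in ependymal cluster 6, 555 ± 73.1 in tanycyte cluster 7, 473 ± 87.2 in tanycyte cluster 0 and 454 ± 153 in pericytes (n = 6). Every neighbour in its order overlapped, down to 49.7 ± 29.2 in oligodendrocyte cluster 12. Over all UMIs Anxa5 was at 240 CPM in pericytes, below tanycyte cluster 10 (274), macrophages (274) and endothelial cells (255). Anxa3, known from phagocytes, was found among these whole-cell clusters mainly in microglia (279 ± 118) and endothelial cells (249 ± 39.5), which overlapped. VLMC, next in the order, was at 86.3 ± 37.0 (n = 4), with no mouse in the range of the endothelial cells. In the tanycyte, ependymal, astrocyte and oligodendrocyte-lineage clusters Anxa3 was at 5.90 or below. Nuclei, unlike whole cells, were counted against a reference with introns. The order differed in Day 1 vehicle nuclei, where Anxa3 was highest in VLMC (596 ± 58.2, n = 3). Microglia were next (47.5 ± 23.5), without overlap, and endothelial nuclei were too few to include.

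Anxa4, an epithelial annexin, did not exceed 22.7 ± 14.1 CPM (tanycyte cluster 7) in the 16 clusters, and its 5 highest clusters overlapped. Anxa6, a protein of endosomes and membrane microdomains, was spread evenly, from 83.7 ± 17.2 in ependymal cells to 33.4 ± 20.4 in microglia with overlap at each step, and was lowest in the oligodendrocyte clusters (7.27 to 14.1). Anxa7, which promotes fusion of secretory granules, led in VLMC (89.8 ± 48.0, n = 4) and endothelial cells (89.3 ± 14.4) and was at 18.0 ± 4.20 in ependymal cells. Over all UMIs of 6 vehicle mice it was at 39.6 CPM in VLMC and 84.2 in endothelial cells. In Day 1 vehicle nuclei it reached 124 ± 91.8 in VLMC, 108 ± 86.0 in n23 neurons and 92.1 ± 12.0 in Agrp neurons (n = 3), which overlapped. Anxa11, which links RNA granules to lysosomes, was at 77.9 ± 23.9 in ependymal cells and 25.1 ± 8.78 in endothelial cells. The map of vehicle levels shows these patterns side by side.

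**Figure D1:**
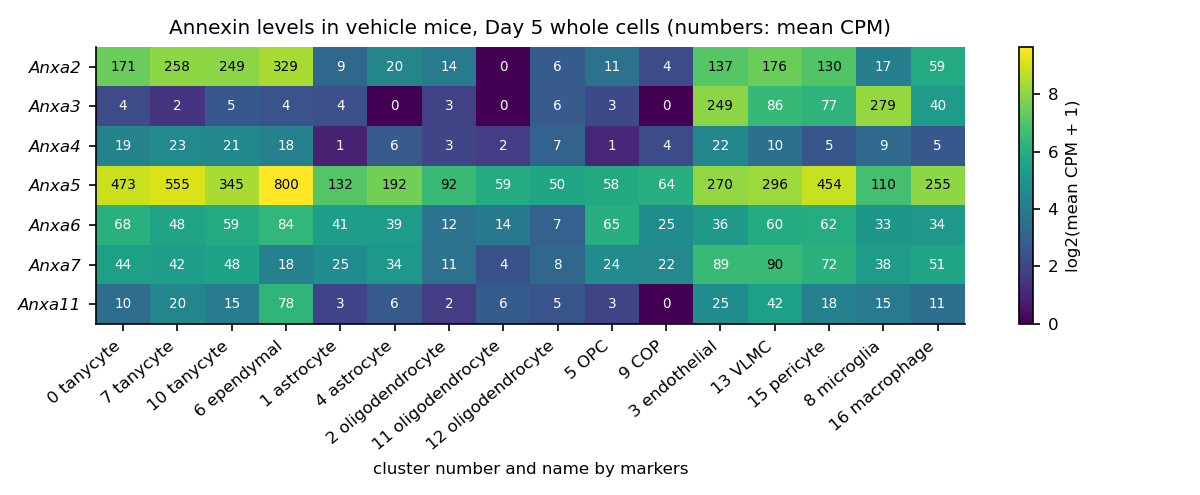
Vehicle levels of the 7 annexins (rows) in the 16 whole-cell clusters tested (columns), as mean normalised CPM over vehicle mice, with colour on a log2 scale. Anxa2 and Anxa5 are highest in ependymal cluster 6 (329 and 800 CPM), Anxa3 in microglia and endothelial cells (279 and 249 CPM), and Anxa4 does not exceed 22.7 CPM in any cluster.

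Over all 20 clusters with 2 or more vehicle mice, including small ones, levels were taken over all UMIs. An unnamed cluster of 67 cells (cluster 20), 22 of them from vehicle mice, had the highest mean of Anxa2 (957 CPM) and Anxa3 (690 CPM, n = 4 mice). As a mean of log2 values over mice, Anxa2 there was 7.64, below the 8.26 of ependymal cluster 6. Patterns over these 20 clusters were correlated with those of 8346 genes, which share libraries and cells, so Pearson's r is descriptive. Small clusters count as much as large ones in r. The genes named below for Anxa2 and Anxa3 were also highest in cluster 20, and Anxa6 was highest in cluster 17, with 11 vehicle cells. The genes most like Anxa2 were S100a11 (r = 0.916), Tcea3 (0.893) and Serpinh1 (0.856). Those most like Anxa5 were Hspa2 (0.919), Ldha (0.918) and Tbca (0.918), and those most like Anxa7 were Gbp7 (0.930), Cyba (0.898) and Ucp2 (0.897). Tmem140 (0.883), Gsdmd (0.860) and Cracr2b (0.837) followed Anxa3, and Irgm2 (0.901), Cdc14a (0.884) and Lrrc23 (0.881) followed Anxa4. For Anxa6 they were Chpf (0.909), Armc2 (0.888) and Coq4 (0.887), and for Anxa11 Gbp2 (0.891), Ocln (0.879) and Akip1 (0.872). Among members, Anxa4 and Anxa11 were most alike (0.801) and Anxa3 and Anxa6 least (-0.123).

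The first comparison asked which annexins responded 1 day after icv FGF1. Anxa2 rose in nuclei of ependymal cells, tanycytes and astrocytes, and Anxa7 rose in tanycytes, while the other 5 members had no significant change in any type tested. UMIs were summed per mouse and cell type and compared with edgeR's quasi-likelihood test, and genes with a false discovery rate (FDR, Benjamini-Hochberg, over all genes tested in that type) below 0.05 were called and are termed differentially expressed genes (DEGs). Log2 fold changes are FGF1 over vehicle with their standard error (SE). Of 126 pairs of a member and a cell type, 28 had enough UMIs to be tested, and 4 were called, all higher after FGF1, where 0.653% of all tests in these 18 types were called higher. The median log2 fold change of the 28 was 0.56 and 25 were above 0, while the median over all genes of a type lay between -0.05 and 0.03. A gene could pass the filter on low counts through its FGF1 mice alone, as Anxa2 did in astrocytes, so these counts are a description. The number called was 3 without FGF1 replicate 1, 2 without vehicle replicate 1, 6 without FGF1 replicate 3 and 8 without the filter on low counts, and DESeq2 called 5.

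Anxa2, which forms a complex with S100a10 at the plasma membrane, stood in ependymal nuclei at 3039, 3179 and 3554 CPM in FGF1 replicates 1, 2 and 3. It stood at 415, 684 and 344 CPM in vehicle replicates 1, 2 and 3. Every FGF1 mouse was thus above every vehicle mouse. The means were 3258 ± 267 and 481 ± 179 (SD, n = 3), and the log2 fold change was 2.76 ± 0.34 (SE, edgeR, Benjamini-Hochberg FDR = 3.67e-05), where 10.2% of all genes tested in ependymal nuclei were called higher. These values rest on 59 FGF1 nuclei with 340 Anxa2 UMIs and 47 vehicle nuclei with 48. The call held under each alternative that could be run. The 6 ependymal markers were lower in the same FGF1 mice, at 1698 to 2837 CPM in sum against 5498 to 6994, with all 6 detected in every mouse, and oligodendrocyte markers at 34.2 to 71.2 against 124 to 385. Their part in the result was not tested.

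In tanycyte nuclei Anxa2 was at 2202, 1182 and 904 CPM in the FGF1 mice and at 136, 290 and 161 CPM in the vehicle mice, again without overlap. FGF1 replicate 1 was the highest of the 3. The log2 fold change was 2.86 ± 0.49 (edgeR, Benjamini-Hochberg FDR = 0.00344), where 5.38% of genes tested in tanycytes were called higher, on 778 and 55 UMIs. Without vehicle replicate 1 it was 2.60 with an FDR of 0.0565. Summed ependymal markers in these nuclei were at 100 to 151 CPM after FGF1 and at 407 to 702 CPM in vehicle mice, with 3 to 6 of the 6 detected, and oligodendrocyte markers at 67.0 to 83.8 and 150 to 179. The part of either in the result was not tested.

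The highest log2 fold change of the family was that of Anxa2 in astrocyte nuclei. FGF1 mice were at 350, 314 and 321 CPM (mean 328 ± 19.3) and vehicle mice at 25.4, 13.5 and 13.1 (17.3 ± 7.00), an 18.9-fold ratio of means. The FGF1 mice were close to each other and far above all vehicle mice. The log2 fold change was 4.26 ± 0.51 (edgeR, Benjamini-Hochberg FDR = 0.00285), on 488 UMIs after FGF1 and 14 in vehicle mice, where 1.39% of genes tested in astrocytes were called higher. Without vehicle replicate 1 it was 4.60 with an FDR of 0.0563. Vehicle replicates 1, 2 and 3 held 5, 7 and 2 Anxa2 UMIs, so the gene passed the filter on low counts through the FGF1 mice. The 5 endothelial markers were at 113 to 234 CPM in sum in FGF1 mice (2 to 5 detected) and at 44.5 to 107 in vehicle mice (3 to 5 detected), and the 3 smooth muscle markers at 13.4 to 35.9 and at most 6.53. Their part in the result was not tested.

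Without FGF1 replicate 1, the library that stood apart, the log2 fold changes of Anxa2 were 2.88 ± 0.38 in ependymal nuclei (edgeR, Benjamini-Hochberg FDR = 7.96e-05), 2.40 ± 0.39 in tanycytes (FDR = 0.00176) and 4.18 ± 0.45 in astrocytes (FDR = 0.00128), so all 3 calls held. Per nucleus, at an equal 1500 UMIs, an Anxa2 UMI was present in 69.6 to 84.5% of tanycyte nuclei of FGF1 mice against 15 to 22.9% in vehicle mice. The shares were 72.2 to 87.5% against 22.2 to 31.2% in ependymal nuclei, and 27.4 to 38.9% against at most 5.26% in astrocytes. In n29 neurons (n29.Nr5a1/Adcyap1), which lack these glial identities, they were 1.99 to 5.13% and 0.694 to 1.15% at the same depth. The highest share in any FGF1 mouse among the other neuron types was 18.2%, in GABA15 (3 of 36 nuclei over 2 mice). The shares of these 3 glial types in FGF1 mice were above all of these. Of the tanycyte nuclei, 176 of 187 and 87 of 87 were deep enough to keep. Without thinning, the shares were 88.0 to 91.6% and 30 to 57.1% in tanycytes, 100% and 38.9 to 76.9% in ependymal nuclei and 46.4 to 54.0% and 4.44 to 8.77% in astrocytes.

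Unmapped neurons held little Anxa2, at 30.6, 19.4 and 19.7 CPM after FGF1 and 4.16, 4.13 and 2.27 in vehicle mice. The groups did not overlap, and the log2 fold change of 2.67 ± 0.36 missed the threshold (edgeR, Benjamini-Hochberg FDR = 0.0819), whereas DESeq2 gave an FDR of 8.97e-06. At 1500 UMIs 2.94 to 4.43% of these nuclei held an Anxa2 UMI after FGF1 and at most 0.917% in vehicle mice. Whether free RNA from other cells gave these UMIs was not tested. Counting also the types in which Anxa2 was too low to test, every FGF1 mouse was above every vehicle mouse in 14 of 18 types, neurons among them, some on few UMIs. This was so for Anxa7 in 7 of the 18, for Anxa5 and Anxa6 in 4 each, and for 7.97% of all tests of genes that passed the filter. That share leaves out genes too low to test, so it is not a like measure for those types. The types also come from the same mice, and some had only 2 mice in a group. In nuclei labelled COP Anxa2 was at 48.8 to 66.1 CPM against at most 11.2, on 31 UMIs against 3. In the same nuclei OPC markers were at 2583 to 4811 CPM in sum after FGF1 and at 1344 to 2245 in vehicle mice, oligodendrocyte markers at 145 to 163 and 175 to 336, and macrophage markers at up to 20.9 and 28.0 to 49.2, and their part in the Anxa2 values was not tested. In n29 neurons Anxa2 was at 13.7 to 27.4 against 1.86 to 12.6, on 43 against 9. In VLMC nuclei, 2 FGF1 mice with 10 or more nuclei were at 2024 and 480 CPM and 3 vehicle mice at 334, 490 and 193, with overlap (log2 fold change 1.79 ± 0.64, edgeR, Benjamini-Hochberg FDR = 0.148). The neuron type named n15.Pomc/Anxa2 in the annotation had 11 nuclei in all, of which 2 held an Anxa2 UMI, and was not tested.

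**Figure D2:**
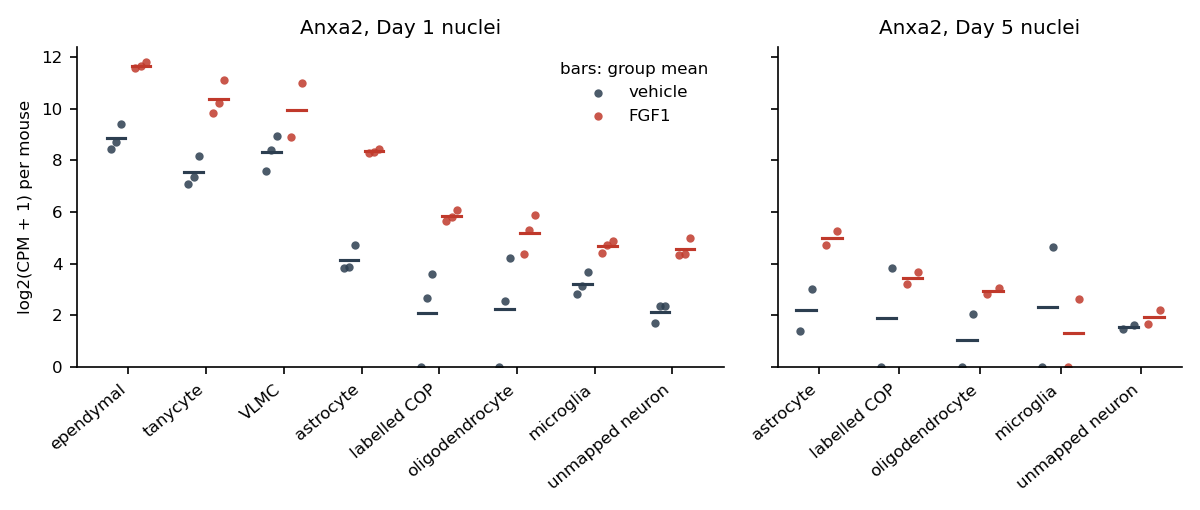
Anxa2 in nuclei on Day 1 (left) and Day 5 (right), as log2 of CPM plus 1 on the vertical axis, by cell type. Points are mice (FGF1 or vehicle) and bars are group means; on Day 1 the groups overlap only in VLMC among the types drawn, and on Day 5 they separate in astrocytes (37.6 and 25.7 CPM against 1.63 and 7.06), oligodendrocytes and unmapped neurons.

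Anxa7, a binding partner of sorcin (Sri) and Pdcd6, was at 382, 193 and 117 CPM in tanycyte nuclei after FGF1 and at 81.3, 46.8 and 89.7 in vehicle mice. The lowest FGF1 mouse was above the highest vehicle mouse. UMIs numbered 101, 23 and 7 in FGF1 replicates 1, 2 and 3 and 9, 5 and 5 in vehicle replicates 1, 2 and 3. The log2 fold change was 1.79 ± 0.50 (edgeR, Benjamini-Hochberg FDR = 0.0415). This call was lost in 9 of 13 alternatives, among them DESeq2 (FDR = 0.057) and the removal of FGF1 replicates 1 or 2 or of any vehicle mouse, with FDRs up to 0.188.

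In astrocytes Anxa7 was at 157, 120 and 134 CPM against 45.8, 56.1 and 32.6. The groups did not overlap, and the log2 fold change of 1.56 ± 0.41 missed the threshold (edgeR, Benjamini-Hochberg FDR = 0.105), whereas DESeq2 called it (FDR = 0.0376). In ependymal nuclei it was at 566, 427 and 273 CPM against 29.6, 31.1 and 57.3, on 45 UMIs against 4, and it did not pass the filter on low counts. In oligodendrocytes, microglia, nuclei labelled COP, unmapped neurons and 4 named neuron types the log2 fold changes of Anxa7 ran from -0.29 to 1.00, and the groups overlapped in each.

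Anxa5 was higher on average after FGF1 in all 4 types tested, with overlapping groups in each and no call. In tanycytes it was at 608, 226 and 268 CPM against 154, 262 and 161 (log2 fold change 0.96 ± 0.45, edgeR, Benjamini-Hochberg FDR = 0.211). In astrocytes it was at 292, 136 and 100 CPM against 91.5, 108 and 45.7 (1.10 ± 0.51, FDR = 0.547). FGF1 replicate 1 was the highest mouse in both. In ependymal nuclei it was at 506, 712 and 649 CPM against 445, 280 and 515 (0.59 ± 0.33, FDR = 0.239).

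Anxa3 in VLMC nuclei was at 279 and 352 CPM after FGF1 and at 644, 612 and 531 in vehicle mice. It was the only one of the 28 tests with every FGF1 mouse below every vehicle mouse (log2 fold change -0.88 ± 0.65, edgeR, Benjamini-Hochberg FDR = 0.550), an order found in 7.82% of all tests in these types. In the same VLMC nuclei the 5 VLMC markers were at 3933 to 7609 CPM in sum after FGF1 and at 1641 to 2570 in vehicle mice, neuron markers at 5563 to 6631 and 6758 to 8753, COP markers at up to 160 and 193 to 326, and macrophage markers at 69.8 to 95.9 and up to 23.8. Their part in the Anxa2 and Anxa3 values was not tested. Anxa6 was tested in 4 types (-0.56 to 0.33) and Anxa4 and Anxa11 in unmapped neurons (0.40 and 0.26), with none called. Over all 28 tests, every FGF1 mouse was above every vehicle mouse in 7 (25%), against the 7.97% of all tests in these types. Anxa2 in astrocytes, which passed the filter through its FGF1 mice, is among the 7.

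On Day 5 the nuclei came from 2 mice a group, and no member was called in 23 tests (edgeR; 1 at an unadjusted p below 0.05; DESeq2 0), where 0.0769% of all tests were called higher. DESeq2 gave no adjusted p for 9 of the 23, Anxa2 in astrocytes among them (log2 fold change 3.41). Vehicle nuclei were too few for a test in tanycytes (23 in all, with 9 in 1 mouse) and ependymal cells (11, with 3 in 1 mouse). Anxa2 in astrocytes was at 37.6 and 25.7 CPM after FGF1 and at 1.63 and 7.06 in vehicle mice, on 39 UMIs against 2. It passed the filter on low counts through the FGF1 mice. Both FGF1 mice were above both vehicle mice, and the log2 fold change of 3.38 ± 0.81 missed the threshold (edgeR, Benjamini-Hochberg FDR = 0.0587). The FDR was 0.0466 with RLE scaling, 0.0114 without the filter on low counts. Leaving out 1 vehicle mouse leaves a single one, which is then assumed to vary like the FGF1 pair, and gave 4.09 (FDR = 0.000729) without vehicle replicate 38 and 2.07 (FDR = 0.643) without vehicle replicate 28. In the same nuclei tanycyte markers were at 150 to 170 CPM in sum after FGF1 and at 198 to 451 in vehicle mice (4 to 7 of 7 detected), pericyte markers at 5.01 to 11.8 and 19.5 to 56.5 (2 to 3 of 5) and astrocyte markers at 5797 to 7754 and 4208 to 4957 (all 7). Their part in the result was not tested. Anxa2 groups were also apart in oligodendrocytes, n29 neurons and unmapped neurons, 4 of 11 types in all, and in unmapped neurons the levels were 2.14 and 3.65 CPM against 2.07 and 1.77. With 2 mice a group such a separation was frequent, at 19.9% of all Day 5 nuclei tests with FGF1 higher, and over the same 11 types it was found for Anxa7 in 5 and Anxa5 in 4, and with FGF1 lower in 4 for Anxa11, against 19% of all Day 5 nuclei tests. Both shares cover only genes that passed the filter, unlike the counts over the 11 types.

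The other members had log2 fold changes between -1.19 and 0.95 on Day 5. Anxa5 in astrocytes was at 138 and 202 CPM against 127 and 106, without overlap (log2 fold change 0.53 ± 0.37, edgeR, Benjamini-Hochberg FDR = 0.569). Anxa7 in astrocytes was at 55.1 and 40.7 CPM against 61.8 and 49.4 (-0.33 ± 0.39, FDR = 0.768), so the vehicle mouse of each batch was the higher. Anxa11 in unmapped neurons was at 1.19 and 1.55 CPM against 3.11 and 3.53 (-1.19 ± 0.56, FDR = 0.508).

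Whether the effect of FGF1 differed between the days was tested as an interaction over all 10 mice with nuclei. None of 29 tests was called (edgeR; 2 at an unadjusted p below 0.05; DESeq2 0, with no adjusted p for 2), where 0.00784% of all tests were. The Day 1 effect minus the Day 5 effect was 1.81 ± 0.56 for Anxa7 in astrocytes (edgeR, Benjamini-Hochberg FDR = 0.44) and 2.10 ± 0.65 for Anxa2 in unmapped neurons (FDR = 1). For Anxa2 in astrocytes it was 0.91 ± 1.18 (FDR = 0.921), a difference that these mice could not resolve.

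The larger cohort of whole cells asked the Day 5 question again in other mice. Here Anxa2 rose in tanycyte clusters 0, 7 and 10, ependymal cluster 6 and oligodendrocyte cluster 2, Anxa5 rose in the same tanycyte and oligodendrocyte clusters and in OPC cluster 5, and no other member was called. These data differ from the Day 1 nuclei in day, compartment, dissection and the supplier of the mice, and possibly in chow. Nuclei were also counted against a reference that included introns, and whole cells against the standard one. Sizes were therefore not compared between nuclei and whole cells. Of 41 tests in 16 clusters, 10 were called, all higher after FGF1, where 0.854% of all tests were called higher. The median log2 fold change of the 41 was 0.35 and 39 were above 0. DESeq2 called 9 and gave no adjusted p for 5, Anxa5 in OPC among them, and 6 were called without FGF1 replicate 10, without FGF1 replicate 21 or without vehicle replicate 25.

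Anxa2 in tanycyte cluster 0, the largest tanycyte cluster, had a lowest, median and highest level of 197, 252 and 340 CPM in FGF1 mice and of 157, 174 and 178 in vehicle mice. The groups did not overlap, and the vehicle mice lay close together. The log2 fold change was 0.62 ± 0.12 (edgeR, Benjamini-Hochberg FDR = 0.00167), where 2.64% of genes tested in the cluster were called higher, and the FGF1 mouse was higher in 6 of 6 batches. Anxa5 in the same cluster was at 559, 699 and 809 CPM against 385, 447 and 577, with overlap at 1 end and FGF1 higher in 5 of 6 batches (0.57 ± 0.12, FDR = 0.00453). Astrocyte markers in this cluster were at 1842 to 2530 CPM in sum after FGF1 and at 3126 to 3875 in vehicle mice, with all 7 detected, and their part in the results was not tested.

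In tanycyte cluster 7, in which 5 FGF1 mice had enough cells, Anxa2 was at 357, 398 and 426 CPM against 182, 248 and 364. A single vehicle mouse, replicate 22, lay within the FGF1 range. The log2 fold change was 0.62 ± 0.14 (edgeR, Benjamini-Hochberg FDR = 0.0132), where 0.968% of genes were called higher, and without vehicle replicate 25 the FDR was 0.053. Anxa5 was at 679, 863 and 977 CPM against 473, 552 and 683, with a small overlap (0.60 ± 0.13, FDR = 0.0102). FGF1 was higher in 5 of 5 batches for both genes. Astrocyte markers again did not overlap, at 1412 to 1683 CPM after FGF1 and 1728 to 2818 in vehicle mice (5 to 7 of 7 detected), with their part not tested.

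In tanycyte cluster 10 Anxa5 was at 434, 597 and 695 CPM against 273, 354 and 396, without overlap (log2 fold change 0.75 ± 0.16, edgeR, Benjamini-Hochberg FDR = 0.00881), where 0.973% of genes were called higher. Anxa2 was at 305, 390 and 535 CPM against 198, 249 and 304, also without overlap (0.67 ± 0.18, FDR = 0.0339). FGF1 was higher in 6 of 6 batches for both. The 4 neuron markers were at 6099 to 7410 CPM in sum in FGF1 mice of this cluster (2 to 4 detected) and at 6012 to 7491 in vehicle mice (3 to 4 detected). Of these 4 only Meg3 met the marker rule in this cluster, at 5191 CPM over all its cells. The Anxa2 call was lost in 9 of 19 alternatives, among them without FGF1 replicates 10, 21 or 36 or vehicle replicates 20, 25 or 27, with FDRs up to 0.105.

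In ependymal cluster 6 Anxa2 was between 396 and 676 CPM (mean 501 ± 94.7, SD, n = 6) in FGF1 mice and between 254 and 367 (329 ± 39.8, n = 6) in vehicle mice. The groups did not overlap and FGF1 was higher in 6 of 6 batches (log2 fold change 0.55 ± 0.14, edgeR, Benjamini-Hochberg FDR = 0.0358), where 0.535% of genes were called higher. The call was lost without FGF1 replicates 7, 10, 21 or 36, without vehicle replicates 20, 25 or 29 and without the filter on low counts, with FDRs up to 0.136. Anxa5, at its highest in this cluster, was at 676, 954 and 1032 CPM against 583, 800 and 946 (0.22 ± 0.15, FDR = 0.541).

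Oligodendrocyte cluster 2 had the highest log2 fold change among the 8 clusters in which Anxa2 could be tested, from a low level. FGF1 mice were at 27.4, 52.2 and 67.0 CPM and vehicle mice at 8.49, 12.6 and 27.2, without overlap and with FGF1 higher in 6 of 6 batches. The log2 fold change was 1.60 ± 0.27 (edgeR, Benjamini-Hochberg FDR = 0.00175), on 107 and 110 UMIs, where 0.557% of genes were called higher. The call held in the 18 alternatives that gave a result, and cells capped at 1500 UMIs gave none. Anxa5 was at 102, 146 and 197 CPM against 71.5, 90.6 and 119 (0.61 ± 0.15, FDR = 0.0486), a call that 12 of 19 alternatives lost. The FDR was 0.213 with cells capped at 1500 UMIs. It was 0.0626 to 0.148 without FGF1 replicates 6, 7, 10, 21 or 28 or vehicle replicates 20, 22, 25, 27 or 35. Tanycyte markers moved with these results, at 221 to 563 CPM in sum after FGF1 and 58.2 to 196 in vehicle mice (5 to 7 of 7 detected), and ependymal markers were at 191 to 508 and 90.9 to 205. Their part in the results was not tested.

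In OPC cluster 5 Anxa5 was at 68.0, 99.4 and 129 CPM against 42.6, 59.9 and 71.1 (log2 fold change 0.75 ± 0.19, edgeR, Benjamini-Hochberg FDR = 0.0241), where 1.2% of genes were called higher, with FGF1 higher in 5 of 6 batches. The groups overlapped by a narrow margin. Without FGF1 replicates 10, 21 or 36 or vehicle replicate 22, or with cells capped at 1500 UMIs, the FDR was 0.0577 to 0.0809. Neuron markers in this cluster were at 926 to 1082 CPM after FGF1 and at 1166 to 1271 in vehicle mice with all 4 detected, and their part was not tested.

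**Figure D3:**
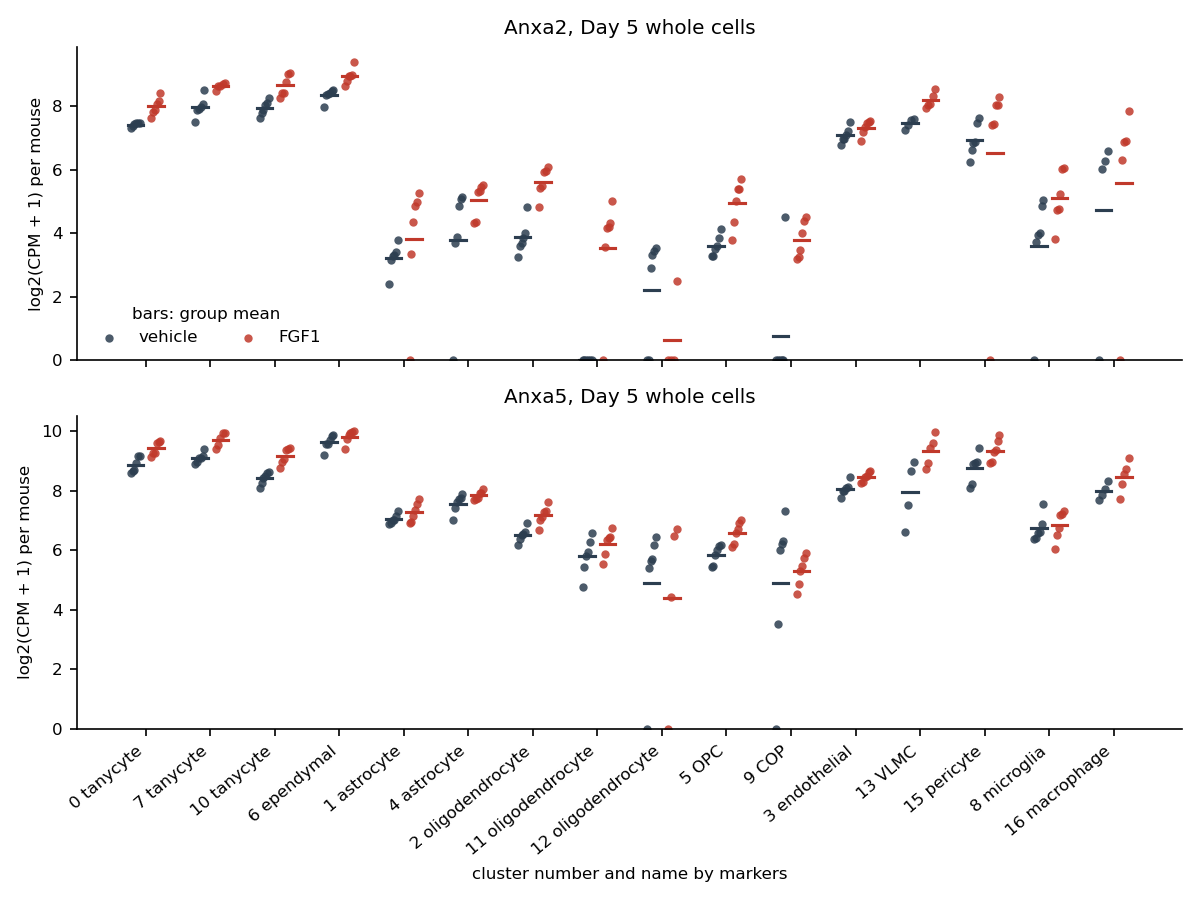
Anxa2 (top) and Anxa5 (bottom) in whole cells on Day 5 in the 16 clusters, as log2 of CPM plus 1 on the vertical axis, with a point per mouse and a bar at the group mean. In tanycyte clusters 0, 7 and 10 both genes are higher after FGF1, and in oligodendrocyte cluster 2 Anxa2 rises from a median of 12.6 to 52.2 CPM.

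At 1500 UMIs per cell, an Anxa2 UMI was found in 26.5 to 36.7% of cells of tanycyte cluster 0 in FGF1 mice and in 21.5 to 25.6% in vehicle mice, after 2295 of 5458 and 1051 of 4051 cells were deep enough to keep. Without thinning the ranges overlapped, at 19.2 to 40.7% and 17.1 to 26.9%. The shares were 39.3 to 51.7% and 33.6 to 44.1% in ependymal cluster 6, with overlap. In COP, at the same depth, at most 4.43% of cells held one after FGF1. In oligodendrocyte cluster 2 the thinned shares of 2.78 to 10.0% and 0.815 to 4.04% overlapped and reached down to that level, so the share of cells did not separate the groups there. Anxa2 was too low to test in 8 clusters, where the mean was higher after FGF1 in 7 and the groups overlapped in each. In OPC it was at 12.7 to 51.6 CPM against 8.70 to 16.4, and FGF1 was higher in 6 of 6 batches. The mean was 13.8 CPM against 3.67 in COP, on 42 UMIs in 1583 cells against 1 in 164. Only oligodendrocyte cluster 12 had the lower mean after FGF1, at 1.16 CPM against 5.96, on 1 UMI in 211 cells against 10 in 952. Oligodendrocyte cluster 11 was at 15.9 CPM on 26 UMIs in 1212 cells after FGF1, with only 166 cells and no UMI in vehicle mice, too few to compare.

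Outside these clusters neither Anxa2 nor Anxa5 was called where it was tested. In VLMC Anxa2 was at 244, 268 and 373 CPM over 5 FGF1 mice and at 152, 179 and 194 over 4 vehicle mice, without overlap (log2 fold change 0.72 ± 0.28, edgeR, Benjamini-Hochberg FDR = 1), and Anxa5 was 1.07 ± 0.40 higher with overlap (FDR = 1). In endothelial cells Anxa5 was at 307, 356 and 406 CPM against 214, 262 and 353 (0.40 ± 0.12, FDR = 0.109). Anxa3 in microglia was at 136, 238 and 350 CPM against 159, 241 and 497 (-0.23 ± 0.26, FDR = 0.784), and in endothelial cells it differed by 0.16 ± 0.13 (FDR = 0.676). No shift was detectable in either of its leading whole-cell types.

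The 4 remaining members were not called in any whole-cell cluster. In oligodendrocyte cluster 2 Anxa4 was too low to test, at 6.19 to 22.5 CPM on 27 UMIs after FGF1 and at up to 4.83 on 25 UMIs in vehicle mice, with no overlap. Anxa3 was also too low to test in astrocyte cluster 4, where it was at 3.10 to 12.6 CPM on 20 UMIs after FGF1 in 3412 cells and had no UMI in 697 vehicle cells. Anxa7 in tanycyte cluster 7 was at 55.0, 65.7 and 74.4 CPM against 16.6, 38.1 and 71.7 (log2 fold change 0.64 ± 0.24, edgeR, Benjamini-Hochberg FDR = 0.159). Anxa11 in tanycyte cluster 0 was at 9.86, 13.2 and 20.3 CPM against 9.18, 9.86 and 10.8 (0.59 ± 0.24, FDR = 0.166). Anxa6 ran from 0.01 in astrocyte cluster 1 to 0.51 ± 0.19 in OPC (FDR = 0.132), and Anxa4 was at 0.26 and 0.35 in the 2 clusters tested. Over all 41 tests the groups did not overlap, with FGF1 higher, in 6 (14.6%), and so they did in 0.850% of all tests. The plot of fold changes gives each test of Day 1 nuclei and Day 5 cells.

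**Figure D4:**
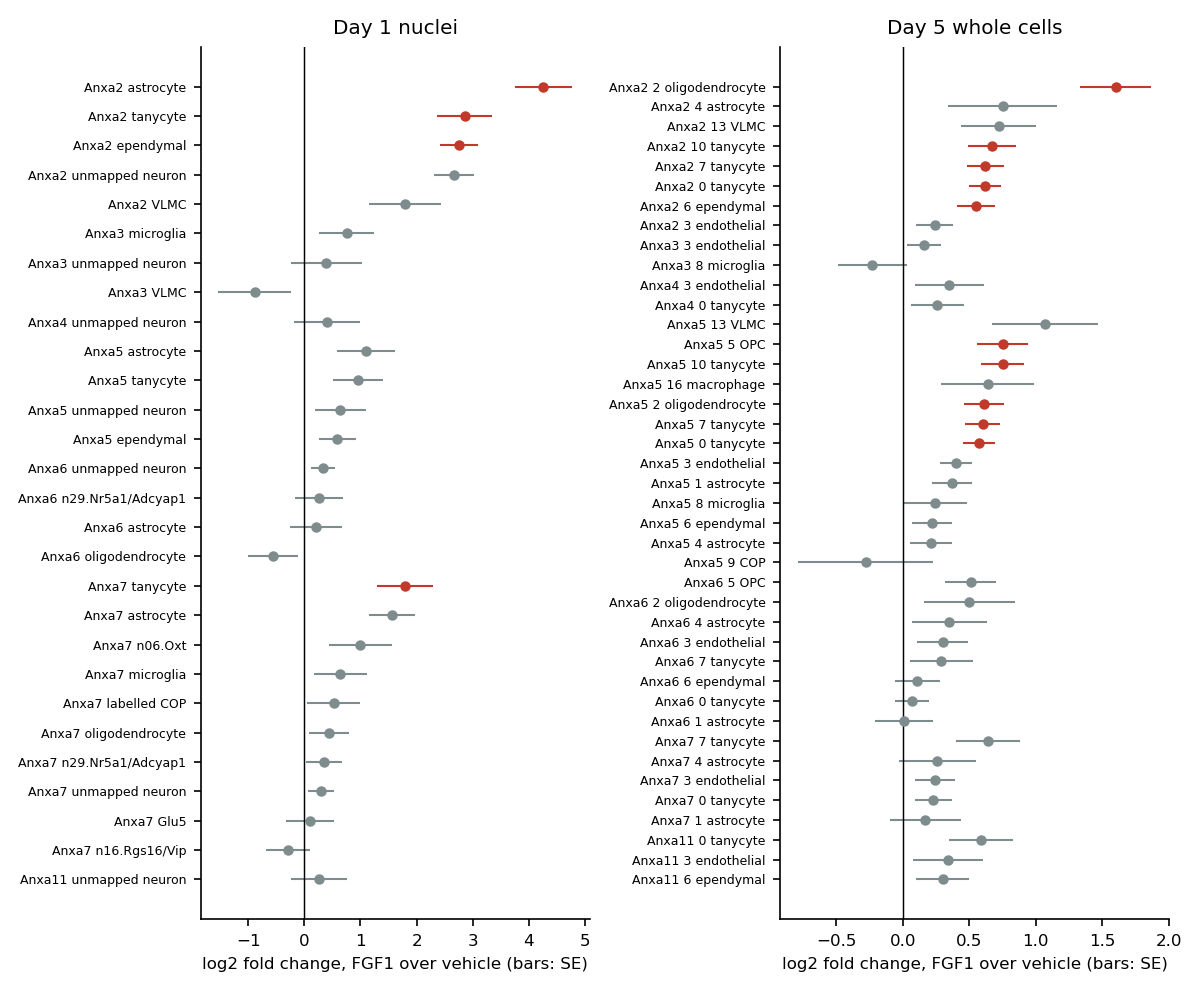
Log2 fold changes (FGF1 over vehicle) with SE bars for the 28 annexin tests in Day 1 nuclei and the 41 in Day 5 whole cells, with DEGs in red. The 4 DEGs of Day 1 (Anxa2 in 3 types, Anxa7 in tanycytes) and the 10 of Day 5 (5 for Anxa2, 5 for Anxa5) all lie above 0.

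Clusters of 1 name were also merged before summing, and 8 annexin tests were called, all higher, where 2.07% of all merged tests were. In merged astrocytes Anxa2 had a log2 fold change of 1.45 ± 0.24 (edgeR, Benjamini-Hochberg FDR = 0.000249), Anxa5 of 0.57 ± 0.11 (FDR = 0.00114) and Anxa7 of 0.52 ± 0.15 (FDR = 0.0215). Astrocytes were spread unequally, however: cluster 1 held 91.9% of vehicle and 31.0% of FGF1 astrocytes, and cluster 4 held 8.07% and 69.0%. Within cluster 4 Anxa2 was at 18.9, 38.7 and 44.7 CPM against 0, 20.7 and 34.2 (0.75 ± 0.41, FDR = 0.621), and in cluster 1 it had too few UMIs to be tested. Within clusters 1 and 4 Anxa5 was 0.37 ± 0.15 (FDR = 0.353) and 0.21 ± 0.16 (FDR = 0.772) higher. The astrocyte calls were thus made only over both clusters together.

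Merged tanycytes gave 0.66 ± 0.12 for Anxa2 (edgeR, Benjamini-Hochberg FDR = 0.00197) and 0.62 ± 0.13 for Anxa5 (FDR = 0.00584). Cluster 0 held 77.9% of vehicle and 59.3% of FGF1 tanycytes and cluster 7 held 11.3% and 29.6%. In merged oligodendrocytes Anxa2 was 1.05 ± 0.24 higher (FDR = 0.0154), with cluster 2 holding 83.4% and 55.6% of them and cluster 11 holding 2.47% and 37.5%. Anxa5 there was 0.26 ± 0.12 higher (FDR = 0.248), and in merged OPC it was 0.71 ± 0.18 higher (FDR = 0.0212).

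Genes whose products work with annexins were read from a list of 19, since Anxa2 holds S100a10 at the membrane, where the pair binds tissue plasminogen activator (Plat), and scramblases such as Ano6 expose the lipids that Anxa5 binds. The list was chosen with earlier results of these data known, so its counts are a description. On Day 1, 23 of 100 tests of these genes in nuclei were called, all higher, where 0.653% of all tests were. By group they were 15 of 31 for S100 and scaffold partners, 4 of 8 for the plasmin system, 3 of 19 for scramblases, 1 of 8 for membrane repair (Myof, in ependymal cells) and 0 of 34 for calcium and ESCRT partners. In ependymal nuclei 7 of 8 were called (median log2 fold change 2.66, against -0.05 over all genes), in tanycytes 7 of 10 (2.43 against 0.03) and in astrocytes 6 of 14 (2.02 against -0.01). Of all genes tested in these types, 10.2%, 5.38% and 1.39% were called higher, in the same order. The S100 partners thus accounted for most of the calls.

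S100a10 in ependymal nuclei was at 1811 to 1874 CPM after FGF1 and at 85.9 to 155 in vehicle mice (log2 fold change 4.03 ± 0.37, edgeR, Benjamini-Hochberg FDR = 1.82e-06). It was at 603 to 1662 against 53.8 to 112 in tanycytes (3.71 ± 0.52, FDR = 0.00135) and at 561 to 1294 against at most 73.5 in astrocytes (4.44 ± 0.92, FDR = 0.0386). S100a11, whose pattern over clusters was most like that of Anxa2, was at 301 to 850 CPM against at most 46.8 in tanycytes (3.92 ± 0.60, FDR = 0.00201), and S100a6 at 2411 to 7098 against 843 to 1282 (2.07 ± 0.46, FDR = 0.0154). In the same nuclei Plat was at 201 to 306 CPM against 35.9 to 46.8 (2.62 ± 0.43, FDR = 0.00278) and Ano6 at 771 to 1014 against 112 to 235 (2.24 ± 0.41, FDR = 0.00464). Ahnak, a scaffold of the Anxa2 complex, was at 67.0 to 176 CPM against 56.2 to 144 in tanycytes and had too few UMIs to be tested there. The 5 partners named for tanycytes, picked among those called, had no overlap between the groups. Of the 3534 genes tested in tanycytes, 517 had every FGF1 mouse above every vehicle mouse.

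On Day 5, 1 of 70 partner tests in nuclei was called, where 0.0769% of all tests were called higher: Plat in astrocytes, at 143 to 232 CPM against 35.3 to 55.3 (log2 fold change 1.95 ± 0.41, edgeR, Benjamini-Hochberg FDR = 0.0323). In whole cells 21 of 137 were called, all higher, where 0.854% of all tests were: 18 of 53 for S100 and scaffold partners, 2 of 9 for the plasmin system, 1 of 61 for calcium and ESCRT partners (Sri, in OPC) and none for membrane repair or scramblases. S100a11 was at 277 to 364 CPM against 104 to 178 in tanycyte cluster 7 (1.15 ± 0.16, FDR = 5.84e-05) and S100a10 at 81.3 to 185 against 43.5 to 69.8 in OPC (1.36 ± 0.18, FDR = 1.24e-06). Ahnak was called in no cluster in which it was tested, at -0.07 ± 0.13 in tanycyte cluster 0 (FDR = 0.871). None of 93 partner tests of the day by treatment interaction was called.

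The other annexin genes in the tables, Anxa1, Anxa8, Anxa9, Anxa10 and Anxa13, were mostly too low to test. They gave 2 tests in Day 1 nuclei, 1 in Day 5 nuclei and 3 in whole cells, with none called. Anxa1, an anti-inflammatory annexin, was at 26.6, 51.3 and 94.4 CPM in tanycyte cluster 0 after FGF1 and at 31.9, 35.7 and 57.5 in vehicle mice (log2 fold change 0.57 ± 0.25, edgeR, Benjamini-Hochberg FDR = 0.226). In ependymal cells it was at 136, 146 and 196 CPM against 121, 130 and 148 (0.17 ± 0.15, FDR = 0.692). Anxa10 in unmapped neurons was at 2.62 and 1.83 CPM after FGF1 and at 3.93 and 7.95 in vehicle mice on Day 5 (-1.23 ± 0.53, FDR = 0.484).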

How the data were processed

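Hypothalamic nuclei and whole cells were profiled with the 10x Chromium 3′ v2 kit. The values used are raw UMI counts per gene and barcode, which the authors made (Cell Ranger 1.2 and Seurat per the labels) and deposited with cell metadata. Per the study, whole cells were counted against the standard mouse reference and nuclei against an adapted one that included introns. For whole cells the study removed neurons and doublets (Scrublet) before deposit. It left the Scrublet step out for nuclei, and no doublet caller was run here. Of the deposited barcodes, 861 nuclei and 4382 cells were above the study's stated limit of 5% (nuclei) or 20% (cells) mitochondrial or ribosomal reads.

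The counts of each mouse were added up within each type (at least 10 cells per mouse and 2 mice per group) and tested with edgeR 4.0.16 (TMM scaling, its default filter on low counts, robust quasi-likelihood F-test) in R 4.3.3 with limma 3.58.1. P-values were Benjamini-Hochberg adjusted over all genes tested in a type, with 0.05 as the FDR threshold. The SE of a log2 fold change was derived from the F statistic. DESeq2 1.42.0, RLE scaling, no low-count filter, at least 30 cells per mouse, barcodes capped at 1500 UMIs, the stated mitochondrial and ribosomal limits, batch and replicate blocks and removal of each mouse were alternatives. The cap kept barcodes with fewer UMIs as they were, so it did not make depth equal. The script was tested on simulated data. Nuclei kept the deposited annotation. Whole-cell clusters were named where at least 3 markers were found in 10% of cells and 2-fold above the other cells.

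The genes named were all 7 members, the other annexins, 19 partners (values for up to 6) and, per member, the 3 genes with the most similar pattern among those reaching 50 CPM in a cluster. Members and lists were chosen with earlier results of these data known. Replicate numbers were shared by FGF1 and vehicle nuclei on Day 1. Deviations of same-numbered mice correlated at -0.139, -0.504 and 0.522 in astrocytes, and those of mice of 1 batch at -0.663, 0.0701 and -0.576. Deviations from the mean of 3 mice sum to 0, so these values cannot decide whether mice were paired. In the deposited batches FGF1 replicates 1, 2 and 3 went with vehicle replicates 3, 1 and 2, not with those of the same number.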

Additional observations from a re-analysis of the deposited data

Results flagged for a closer look

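Of 82 groups of 4 to 10 mice examined, 4 (4.88%) had a highest or lowest mouse that stood apart from the others, and chance gives about 1 in 20. Vehicle replicate 29 held Anxa2 at 27.2 CPM in oligodendrocyte cluster 2, on 23 UMIs, with the other vehicle mice at 8.49 to 15.1. The same mouse held Anxa5 at 188 CPM in microglia, on 13 UMIs, with the others at 81.4 to 116. Vehicle replicate 20 held Anxa2 at 254 CPM in ependymal cluster 6, below the 326 to 367 of the others. Vehicle replicate 35 held Anxa6 at 68.3 CPM in tanycyte cluster 7, above the 39.0 to 49.7 of the others.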

How the results depend on the processing

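The number of annexin calls on Day 1 (4) was 8 without the low-count filter and 2 to 6 when 1 mouse was left out, with 2 without vehicle replicate 1. On Day 5 in nuclei (0) it was 1 with RLE scaling, 1 without the filter and 0 to 1 without 1 mouse, which leaves a single mouse in a group. In whole cells (10) it was 6 with cells capped at 1500 UMIs and 6 to 10 without 1 mouse. The cause was not tested. For the 14 single results called, 196 alternatives kept the call and 46 lost it. For 2 that were not (Anxa2 in Day 1 unmapped neurons and Day 5 astrocytes) 17 gave none and 5 gained it, with no reversal in either set. Alternatives in which a result could not be tested or had no adjusted p are in none of these counts, such as Anxa2 in oligodendrocyte cluster 2 with capped cells. Among uncalled tests, DESeq2 put 16 rather than 17 of 23 above 0 in Day 5 nuclei. With the replicate number as a block, 3 annexins were called on Day 1 (Anxa7 in tanycytes was lost, FDR = 0.0594). With batch as a block, chosen for nuclei after seeing the data, 3, 0 and 10 were called in Day 1 nuclei, Day 5 nuclei and whole cells.

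At 1000 instead of 1500 UMIs per barcode, the mean share over mice with an Anxa2 UMI was 20.0% in vehicle ependymal nuclei, 57.6% and 15.6% in FGF1 and vehicle tanycyte nuclei and 26.4% in FGF1 astrocyte nuclei. In whole cells, FGF1 and vehicle, it was 20.7% and 15.3% in tanycyte cluster 0 and 38.7% and 25.2% in ependymal cluster 6. For Anxa5 it was 45.3% and 36.2% in cluster 0 and 55.1% and 48.4% in cluster 6. Thinning further removes UMIs by construction. Low counts limited the family: 28 of 126, 23 of 77 and 41 of 112 pairs of a member and a type could be tested. With nuclei capped at 1500 UMIs Anxa7 in tanycyte nuclei did not pass the filter.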
